A study of Mus musculus with 6 samples.

Results

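Receptors for the constant part of antibodies, and the ITAM signalling module that these receptors use, were followed here as 10 genes in mouse kidney: Fcgr1, Fcgr3, Fcgr4, Fcgr2b, Fcer1g, Tyrobp, Clec7a, Syk, Btk and Plcg2. The genes were chosen by name as components of the pathway and found by matching the Ensembl identifiers of the count table to GENCODE M21 symbols, which gave 10 of 10 genes among 55450 in the table. Gene coordinates are those of GRCm38 (mm10). RNA was sequenced from kidney tissue of male C57BL/6J wild-type mice bought at 7 weeks of age, 3 at day 0 and 3 at day 21. Mice of the day 21 group were gavaged daily with adenine at a dose of 0.16 g/kg together with potassium oxonate, dosed at 2.4 g/kg, and the day 0 mice are labelled as controls with 20% PEG. Adenine injures the renal tubule and potassium oxonate blocks uricase, so the model joins both insults. The control samples were taken as the day 0 group from the design text. Whether they received PEG by gavage, and for how long, is not clear from the labels. The paper's methods name no gavage for the day 0 group and state that each group was killed on its own day. By that account the groups also differ in gavage and in age, which cannot be told apart from the treatment. Replicates are labelled as separate samples and the p-values measure the spread between them.

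Fc gamma receptors bind the constant region of IgG on the surface of macrophages, neutrophils and other leukocytes. The activating receptors FcγRI, FcγRIII and FcγRIV carry no ITAM of their own and pair with the FcRγ chain, an adaptor whose tail carries an immunoreceptor tyrosine-based activation motif (ITAM). Src family kinases phosphorylate the ITAM tyrosines, the kinase Syk docks there, and Btk and phospholipase Cγ2 then raise calcium, while FcγRIIb carries an inhibitory motif (ITIM) that recruits phosphatases against this signal. DAP12, encoded by Tyrobp, is the parallel ITAM adaptor of TREM2 and related receptors, and Dectin-1, encoded by Clec7a, is a receptor for fungal β-glucan that reaches Syk through a single-tyrosine motif in its own tail.

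The codons behind these motifs are shown for the 4 genes in which they define the gene's role, taken from the GENCODE M21 coding sequences on GRCm38, 5′ to 3′ on the coding strand, with the tyrosine codons in capitals. The Fcer1g and Tyrobp stretches each cross an intron, and their coordinates span it.
Fcer1g ITAM, chr1:171229880-171230081, minus strand: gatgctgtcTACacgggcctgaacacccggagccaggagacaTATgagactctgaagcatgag
Tyrobp ITAM, chr7:30415661-30417391, plus strand: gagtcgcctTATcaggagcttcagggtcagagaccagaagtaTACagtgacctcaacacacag
Clec7a single-tyrosine motif, chr6:129472623-129472652, minus strand: gaagatggaTATactcaattagacttcagc
Fcgr2b ITIM, chr1:170961062-170961097, minus strand: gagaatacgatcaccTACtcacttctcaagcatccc
The ITAM was searched as TAT or TAC, 2 free codons, a leucine or isoleucine codon, then 6 to 12 codons and the same pattern again, in frame. Among the 10 genes it was found only in Fcer1g and Tyrobp, with 7 codons between the repeats in each, and it was found in 6.31% of 22487 coding sequences. The single-tyrosine and ITIM patterns are short, occurring in 73.8% and 47.7% of coding sequences, so the Clec7a and Fcgr2b stretches are shown because they are the known motifs of these proteins. A first search in the longest coding sequence of each gene, of 92 codons for Fcer1g, found the ITAM pattern in Tyrobp alone, and the principal transcript, of 86 codons for Fcer1g, was used after this was seen.

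Of the 10 genes, 9 were higher at day 21 and 0 were lower, at an adjusted p below 0.05 and a fold change over 1.5 in edgeR's quasi-likelihood test. Across the 16592 genes tested, 19.6% were called higher and 15.5% lower by the same rule. The 9 genes had every day 21 mouse above every day 0 mouse, a separation found for 30.7% of all genes tested. The exception was the inhibitory receptor Fcgr2b. The median log2 fold change of the 10 genes was 2.54, against 0.03 over all genes tested. Bulk kidney RNA was measured, so more cells of a type and more RNA per cell cannot be told apart.

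**Figure D1:**
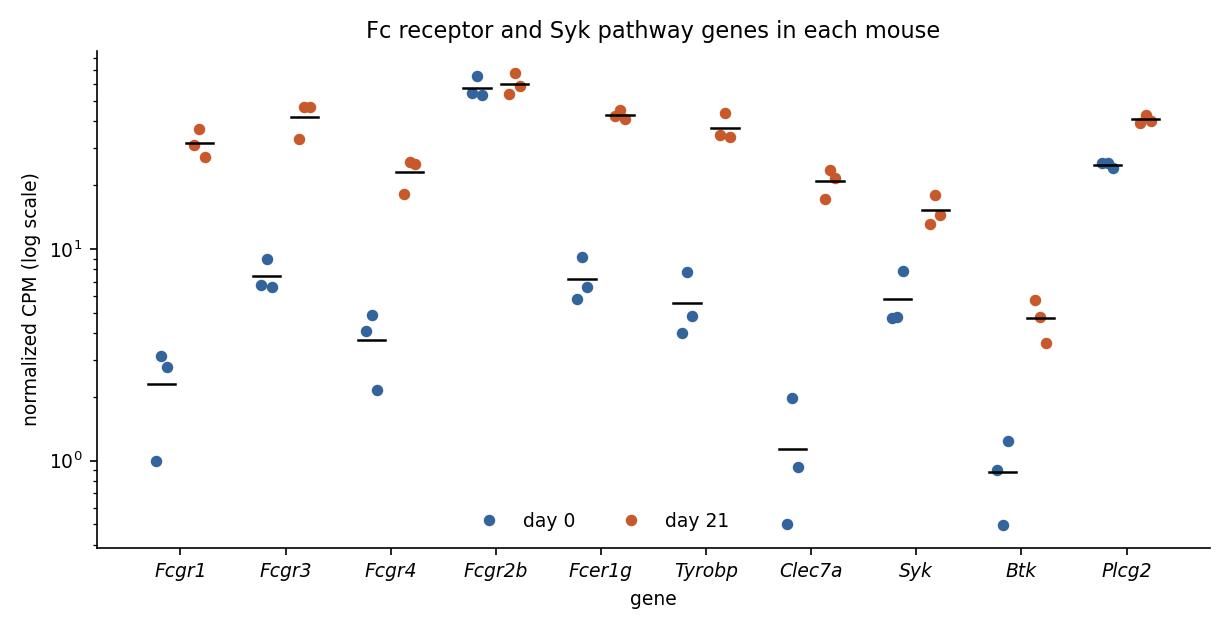
Normalized CPM (log scale) of the 10 genes in each mouse, with day 0 in blue, day 21 in orange, points for mice and bars for the mean of 3 mice. The day 21 points lie above the day 0 points for 9 genes, and those of Fcgr2b overlap (57.8 and 60.2 CPM on average).

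Among the activating receptors, the largest change was in Fcgr1, which encodes the high-affinity IgG receptor FcγRI (CD64; chr3:96282909-96293969). Its raw counts were 10, 38 and 27 in the day 0 mice and 436, 616 and 442 in the day 21 mice. The groups were far apart, with no day 0 mouse near the lowest day 21 mouse. Mean normalized CPM, counts per 1000000 after TMM scaling of library size, was 2.31 ± 1.14 (SD, n = 3) at day 0 and 31.5 ± 4.88 (SD, n = 3) at day 21. The log2 fold change was 3.75 (SE 0.30, 95% confidence interval 3.09 to 4.41), a 13.5-fold rise (edgeR, Benjamini-Hochberg adjusted p = 7.4e-06).

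Fcgr3 (chr1:171051174-171064935) encodes the low-affinity receptor FcγRIII, the receptor of mouse IgG immune complexes on myeloid and NK cells. It had 67, 109 and 64 counts at day 0 and 468, 784 and 763 at day 21. The lowest day 21 mouse stood well above the highest day 0 mouse, and the mean rose from 7.43 ± 1.35 to 42.2 ± 7.89 CPM (SD, n = 3 each), 5.64-fold (log2 fold change 2.50, SE 0.19; edgeR adjusted p = 6.2e-06). Fcgr3 shares 166 of its 50-base words (12.8% of those in its longest coding transcript) with Fcgr2b, so reads from these stretches could be assigned to either gene, and how such reads were counted is not given in the sources used here.

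Fcgr4 (chr1:171018920-171029761) encodes FcγRIV, a receptor of intermediate affinity for IgG2a/c and IgG2b on macrophages and neutrophils. Counts were 41, 59 and 21 at day 0 and 256, 432 and 410 at day 21, again with no overlap. The mean went from 3.71 ± 1.39 to 23.0 ± 4.25 CPM (SD, n = 3 each), 6.12-fold (log2 fold change 2.61, SE 0.27; edgeR adjusted p = 3.4e-05).

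Fcgr2b (chr1:170958617-170976547) encodes the inhibitory receptor FcγRIIb, present on B cells, macrophages and some endothelial cells. It had 546, 796 and 515 counts at day 0 and 767, 1131 and 964 at day 21. After scaling, the groups overlapped, with 53.1 to 65.6 CPM at day 0 and 54.2 to 67.5 CPM at day 21. The log2 fold change was 0.06 (SE 0.13, 95% confidence interval -0.22 to 0.34; edgeR adjusted p = 0.735), so that the interval allowed a change between 0.856-fold and 1.27-fold. The interval lies within 1.5-fold in both directions and below the interval of every other member. Fcgr2b, Fcgr4, Fcgr3 and Fcer1g lie in the same region of chromosome 1, and of these Fcgr2b was the gene not called. As for the shared words above, 12.5% of the 50-base words of Fcgr2b also occur in other annotated genes.

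**Figure D2:**
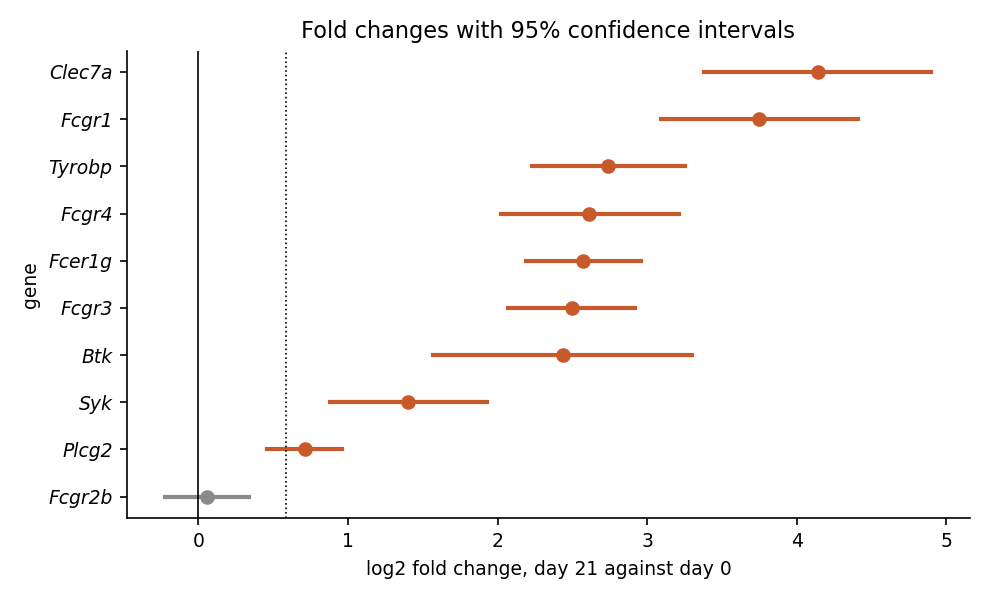
Log2 fold change of each gene, day 21 against day 0, from edgeR (points) with 95% confidence intervals (lines); orange genes were called higher, grey was not called, and the dotted line marks a 1.5-fold rise. Clec7a (4.14) and Fcgr1 (3.75) lie farthest right and Fcgr2b (0.06) lies on 0.

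The activating and inhibitory receptors bind the same ligand, and their proportion was compared within each library, where library scaling cancels. The ratio of summed Fcgr1, Fcgr3 and Fcgr4 counts to Fcgr2b counts, each per base of exon, was 0.796, 0.905 and 0.720 in the day 0 mice and 4.84, 5.29 and 5.63 in the day 21 mice. The inhibitory receptor thus had the larger per-length level in each day 0 kidney and the activating receptors together in each day 21 kidney. The ratio rose 6.53-fold, a log2 difference of 2.71, and with 3 mice a group the exact two-sided permutation p was 0.1, the smallest this design can give. Taken alone, Fcgr1 gave a log2 difference of 3.87 against Fcgr2b, Fcgr3 gave 2.44 and Fcgr4 gave 2.63, each with no overlap between groups. Without the division by length the difference was 2.80.

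**Figure D3:**
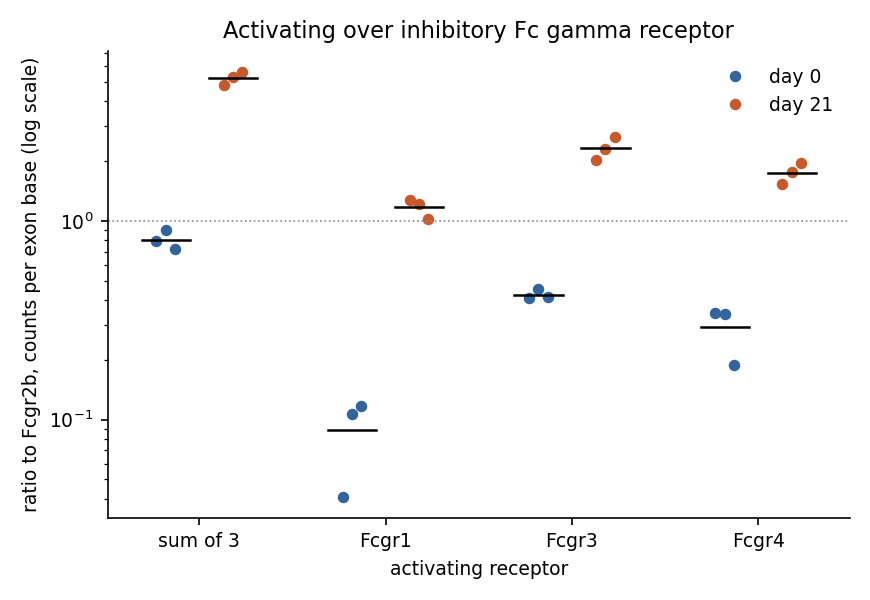
Ratio of activating to inhibitory Fc gamma receptor counts per exon base in each mouse (log scale), for the sum of Fcgr1, Fcgr3 and Fcgr4 and for each alone, with bars at the mean of 3 mice and the dotted line at 1. The summed ratio lies between 0.720 and 0.905 at day 0 and between 4.84 and 5.63 at day 21.

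Both ITAM adaptors rose. Fcer1g (chr1:171229572-171234365), whose product is the FcRγ chain, had 58, 111 and 64 counts at day 0 and 603, 763 and 675 at day 21. The mean moved from 7.19 ± 1.74 to 43.2 ± 2.14 CPM (SD, n = 3 each), 5.96-fold (log2 fold change 2.57, SE 0.17; edgeR adjusted p = 3.0e-06). Its groups did not overlap. Tyrobp (chr7:30413760-30417585), which encodes DAP12, had 40, 94 and 47 counts at day 0 and 488, 738 and 550 at day 21. The mean moved from 5.53 ± 1.96 to 37.4 ± 5.75 CPM (SD, n = 3 each), 6.67-fold (log2 fold change 2.74, SE 0.23; edgeR adjusted p = 1.0e-05). Day 0 replicate 2 was the highest of the day 0 mice in CPM for both adaptors, as it was for Fcgr1, Fcgr3, Fcgr4, Fcgr2b and Clec7a. In comparisons added after the data were seen, the per-length ratio of Fcer1g to Tyrobp differed by -0.19 (log2) between groups (exact permutation p = 0.3), and that of Fcer1g to the summed activating receptors by -0.15 (exact permutation p = 0.4), with overlapping groups in both cases.

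Clec7a (chr6:129461591-129472779), the gene of Dectin-1, showed the largest fold change of the 10 genes. It had 5, 24 and 9 counts at day 0 and 244, 397 and 353 at day 21. The day 0 level, 1.14 ± 0.760 CPM (SD, n = 3), was a few times the level of 3 counts (0.247 to 0.309 CPM in the day 0 libraries) and its spread was wide. The day 21 level was 20.9 ± 3.29 CPM (SD, n = 3), 17.6-fold higher, with a 95% confidence interval of 10.4 to 29.8 (log2 fold change 4.14, SE 0.34; edgeR adjusted p = 9.6e-06). Without day 0 replicate 2, the highest of the day 0 mice, the log2 fold change was 4.85. GENCODE M21 types this locus as a polymorphic pseudogene although it lists coding transcripts.

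The kinases rose by less than the adaptors or were thinly covered. Syk (chr13:52583173-52648792), the kinase that docks on phosphorylated ITAMs, had 47, 58 and 76 counts at day 0 and 186, 301 and 236 at day 21. The groups were apart, the mean moving from 5.78 ± 1.78 to 15.2 ± 2.49 CPM (SD, n = 3 each), 2.64-fold (log2 fold change 1.40, SE 0.24, 95% confidence interval 0.88 to 1.93; edgeR adjusted p = 8.1e-04). Btk (chrX:134542336-134583570), the Tec family kinase that activates phospholipase Cγ2, had 9, 6 and 12 counts at day 0 and 81, 80 and 59 at day 21. It was the least abundant member, and its 5.41-fold rise had a 95% confidence interval of 2.98 to 9.83, the widest of the 10 genes on the log2 scale (log2 fold change 2.44, SE 0.39; edgeR adjusted p = 5.7e-04).

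Plcg2 (chr8:117498291-117635142), the phospholipase that releases inositol trisphosphate and diacylglycerol, was already present at day 0 and rose least among the genes called. It had 254, 309 and 234 counts at day 0 and 557, 723 and 654 at day 21. The mice of each group lay close together, at 25.0 ± 0.781 and 40.9 ± 2.00 CPM (SD, n = 3 each), so that a 1.63-fold difference was well outside the spread (log2 fold change 0.71, SE 0.11, 95% confidence interval 0.46 to 0.96; edgeR adjusted p = 5.5e-04).

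Levels of different genes were compared per length, as TPM (transcripts scaled to a common total) computed from the counts and the summed exon length of each gene. At day 0 Fcgr2b led with 21.6 ± 1.49 TPM (SD, n = 3), followed by Tyrobp at 17.8 ± 5.32 and Fcer1g at 17.7 ± 3.32, and the ranges of these neighbours overlapped. Plcg2 (12.7 ± 0.668), Fcgr3 (9.25 ± 1.18) and Fcgr4 (6.38 ± 2.24) came next, each separated from its neighbours. Fcgr1, Syk, Clec7a and Btk followed at 1.91, 1.35, 0.915 and 0.613 TPM on average, and each overlapped the next. At day 21 Tyrobp and Fcer1g led with 176 ± 29.0 and 155 ± 9.03 TPM, overlapping each other and apart from all others. Fcgr3, Fcgr4, Fcgr1, Fcgr2b, Plcg2 and Clec7a formed a descending series from 76.3 to 24.8 TPM in which each overlapped the next, and Syk (5.09) and Btk (4.67) came last and overlapped. Fcgr2b thus went from the first to the sixth place on this scale. The order rests on the summed exon length, 5790 bases for Fcgr2b and 2589 for Fcgr1. Their longest coding transcripts have 3544 and 2589 bases, and the order on those lengths was not computed. TPM moved as a whole between the groups, with a median log2 difference of 0.56 over 16330 tested genes with counts in every mouse, and the difference of Fcgr2b on this scale, 0.59, stood beside that shift.

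Cell type markers moved with these genes. Of 12 macrophage and monocyte markers, 11 were called higher, and their summed level went from 164 to 207 CPM at day 0 to 842 to 986 CPM at day 21. Cd163 was the marker not called (log2 fold change 0.73, SE 0.54; edgeR adjusted p = 0.3). The part of these cells in the results was not tested. Of 8 T cell markers, 8 were called higher, with sums of 6.42 to 10.8 CPM at day 0 and 30.9 to 36.1 CPM at day 21. Of 8 dendritic cell markers, 7 were tested and 2 called higher, with sums of 18.5 to 21.8 CPM and 39.1 to 55.2 CPM. Other cells that bear Fc receptors left fewer calls. Of 12 neutrophil markers 5 were tested, 1 called higher and 2 lower, and the list summed to 16.7 to 33.0 CPM at day 0 and 12.4 to 13.9 CPM at day 21, with Mpo and Elane at 0 counts in all 6 mice. Of 8 B cell markers, 0 were called (2 were tested), with sums of 1.96 to 3.71 CPM and 3.68 to 6.86 CPM. Of 7 NK cell markers 1 was tested and 0 were called, and of 10 mast cell and basophil markers 5 were at 0 counts in every mouse, including Fcer1a, and 0 were called. Of 6 fibroblast and 6 proliferation markers all were called higher, 9 of 10 kidney epithelial markers were called lower, and of 6 endothelial markers 2 were called lower and 0 higher.

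Set against the summed counts of the 12 macrophage and monocyte markers in the same mouse, the 10 genes divided. Relative to these markers, 4 genes had every day 21 mouse above every day 0 mouse, against 2.13% of all genes tested. Clec7a rose from 0.294, 0.955 and 0.565 to 2.05, 2.40 and 2.44 counts per 100 marker counts, a log2 difference of 2.08. Fcgr1 rose from 0.589, 1.51 and 1.70 to 3.66, 3.73 and 3.06 counts per 100 marker counts, a log2 difference of 1.60. Tyrobp (0.47) and Fcer1g (0.28) were also apart, and Fcgr3, Fcgr4 and Btk overlapped between groups, with log2 differences of 0.17, 0.36 and 0.16.

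The other 3 genes fell relative to the markers, with every day 21 mouse below every day 0 mouse, as did 89.5% of all genes tested. Fcgr2b went from 32.2, 31.7 and 32.3 to 6.44, 6.84 and 6.67 counts per 100 marker counts, a log2 difference of -2.27. Plcg2 differed by -1.62 and Syk by -0.91. Each exact permutation p was 0.1 where the groups were apart. The choice of marker sum shifted all 10 values together. With the mean of the log2 marker counts in place of the sum, the median of the 10 genes turned from 0.23 to -0.11 and Fcer1g from 0.28 to -0.05, and without the 3 C1q genes the median was 0.88. Clec7a (1.74 to 2.74) and Fcgr1 (1.26 to 2.25) stayed above 0, and Fcgr2b (-2.61 to -1.61), Plcg2 (-1.96 to -0.97) and Syk (-1.24 to -0.25) below 0, under these forms.

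**Figure D4:**
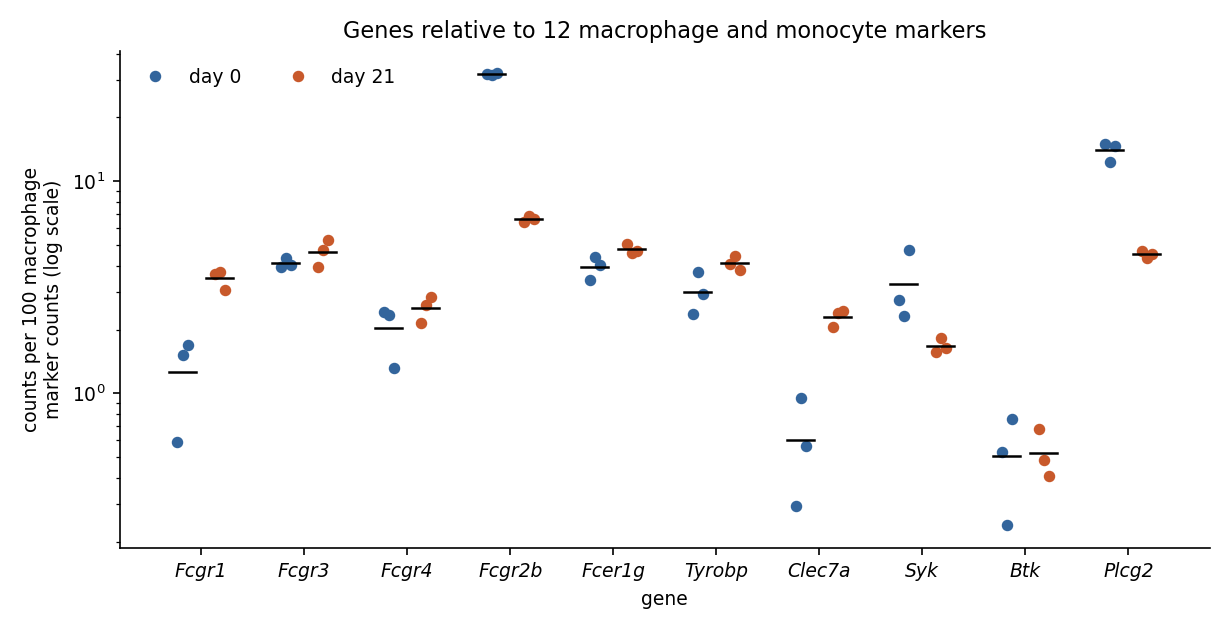
Counts of each gene per 100 counts of the 12 macrophage and monocyte markers in the same mouse (log scale), with day 0 in blue, day 21 in orange and bars at the mean of 3 mice. Fcgr1 and Clec7a are higher at day 21 on this scale, Fcgr2b, Syk and Plcg2 are lower, and Fcgr3, Fcgr4 and Btk overlap.

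Beyond the 10 genes, 141 other genes of Fc receptor and ITAM signalling were listed by role, and 110 passed the filter on low counts. Of these, 64 were called higher and 8 lower, beside 19.6% and 15.5% of all genes tested, with a median log2 fold change of 1.09. A gene may pass that filter only through the group in which it is high, so the medians describe the genes tested and not the lists.

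Among 12 other Fc receptors, 5 were tested, 2 of them higher and 3 lower. The 3 that fell bind antibodies for transport or uptake: Fcgrt, the neonatal receptor that recycles IgG and albumin, fell from 247 to 139 CPM (log2 fold change -0.83, SE 0.11; edgeR adjusted p = 1.4e-04). Fcamr, the receptor for IgA and IgM, had 126, 251 and 190 counts at day 0 and 37, 27 and 21 at day 21 (log2 fold change -3.27, SE 0.30; edgeR adjusted p = 1.7e-05). Pigr, the polymeric immunoglobulin receptor, fell by 1.03 on the log2 scale (SE 0.22; edgeR adjusted p = 0.00378). Fcrls, an Fc receptor-like gene of mouse myeloid cells, stood at the other end with 5, 0 and 3 counts at day 0 and 161, 374 and 265 at day 21 (log2 fold change 5.99, SE 0.52; edgeR adjusted p = 1.3e-05). Its day 0 counts were at or near the level of 3 counts, so its fold change is imprecise. Beside the fall of Fcgrt, Fcamr and Pigr, 9 of 10 kidney epithelial markers were called lower, with sums of 14789 to 17011 CPM at day 0 and 5914 to 6159 CPM at day 21. The part of this in the result was not tested.

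The ligand genes varied widely between mice, and their calls changed when single mice were left out. Of 16 immunoglobulin and pentraxin genes, 8 were tested, 1 was higher and 3 were lower. The summed level of 12 immunoglobulin constant genes was 219, 990 and 198 CPM in the day 0 mice and 138, 334 and 167 CPM in the day 21 mice, so that day 0 replicate 2 stood apart. The heavy chain genes Ighg1 (log2 fold change -3.64, SE 1.19; edgeR adjusted p = 0.0294) and Ighg2c (-3.15, SE 1.12; edgeR adjusted p = 0.0417) were called lower with overlapping groups. Without day 0 replicate 2 they stood at -0.52 and -0.90 (edgeR adjusted p = 0.633 and 0.467). Leaving out any 1 day 21 mouse ended both calls with the fold changes little moved, at -4.29 to -3.35 for Ighg1 and -3.95 to -2.82 for Ighg2c. Jchain, which joins polymeric IgA and IgM, was called lower (-1.17; edgeR adjusted p = 0.0441) and was at -0.40 without day 0 replicate 2 (edgeR adjusted p = 0.272). Its call also ended without day 21 replicate 1 or 3. The gene called higher was Ighm, the IgM heavy chain, with a log2 fold change of 1.59 (edgeR adjusted p = 0.0341), and 2.87 without day 0 replicate 2 (edgeR adjusted p = 5.4e-04). The call on Ighm ended without day 0 replicate 1 or 3 or day 21 replicate 1 or 2. Igha and Igkc were not called, at -0.66 and -1.17 (edgeR adjusted p = 0.208 and 0.144). Both were called lower without day 0 replicate 1, at -1.01 and -1.56 (edgeR adjusted p = 0.0354 and 0.0481), and stood at -0.10 and 0.09 without day 0 replicate 2.

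Of 19 other receptors that signal through the same adaptors, 10 were tested, 8 were called higher and 0 lower, with a median log2 fold change of 2.60 over those tested. Trem2, a lipid-sensing partner of DAP12, had 2, 8 and 2 counts at day 0 and 53, 222 and 103 at day 21 (log2 fold change 4.35, SE 0.62; edgeR adjusted p = 2.8e-04). Clec4n, which encodes Dectin-2, a mannan receptor paired with the FcRγ chain, had 0, 4 and 3 counts at day 0 and 59, 137 and 92 at day 21 (4.72, SE 0.57; edgeR adjusted p = 9.1e-05). Cd300ld rose by 2.56 on the log2 scale (SE 0.27; edgeR adjusted p = 3.7e-05). The first 2 of these genes were at or near the level of 3 counts in day 0 kidneys, so their fold changes are imprecise. Of 9 other ITAM and single-tyrosine motif genes, including the antigen receptor chains, 6 were tested and 3 were called higher. Cd3e (1.86, SE 0.52; edgeR adjusted p = 0.0141) and Cd3d (2.45, SE 0.51; edgeR adjusted p = 0.00316) of the T cell receptor complex were among them. Cd79b, the B cell receptor chain, was at 1.04 (edgeR adjusted p = 0.167), and Cd247 was at 0.00 (edgeR adjusted p = 0.993), where 56.4% of its exon bases lie on the other strand of another annotated gene.

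Upstream and beside Syk, 4 of 7 tested Src family kinases were called higher. Of the Syk and Tec families, apart from Syk and Btk, 0 of 4 tested kinases were called. Lck, the T cell member of the Src family, rose from 1.24 to 7.91 CPM (log2 fold change 2.64, SE 0.35; edgeR adjusted p = 1.7e-04). Lyn, which phosphorylates ITAMs and ITIMs alike, rose from 26.6 to 54.0 CPM (1.02, SE 0.12; edgeR adjusted p = 9.1e-05). Src missed the fold threshold (0.54; edgeR adjusted p = 0.0111). Zap70, the Syk relative of T and NK cells, was at 1.10 (edgeR adjusted p = 0.0584) and Tec at -0.27 (edgeR adjusted p = 0.184).

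**Figure D5:**
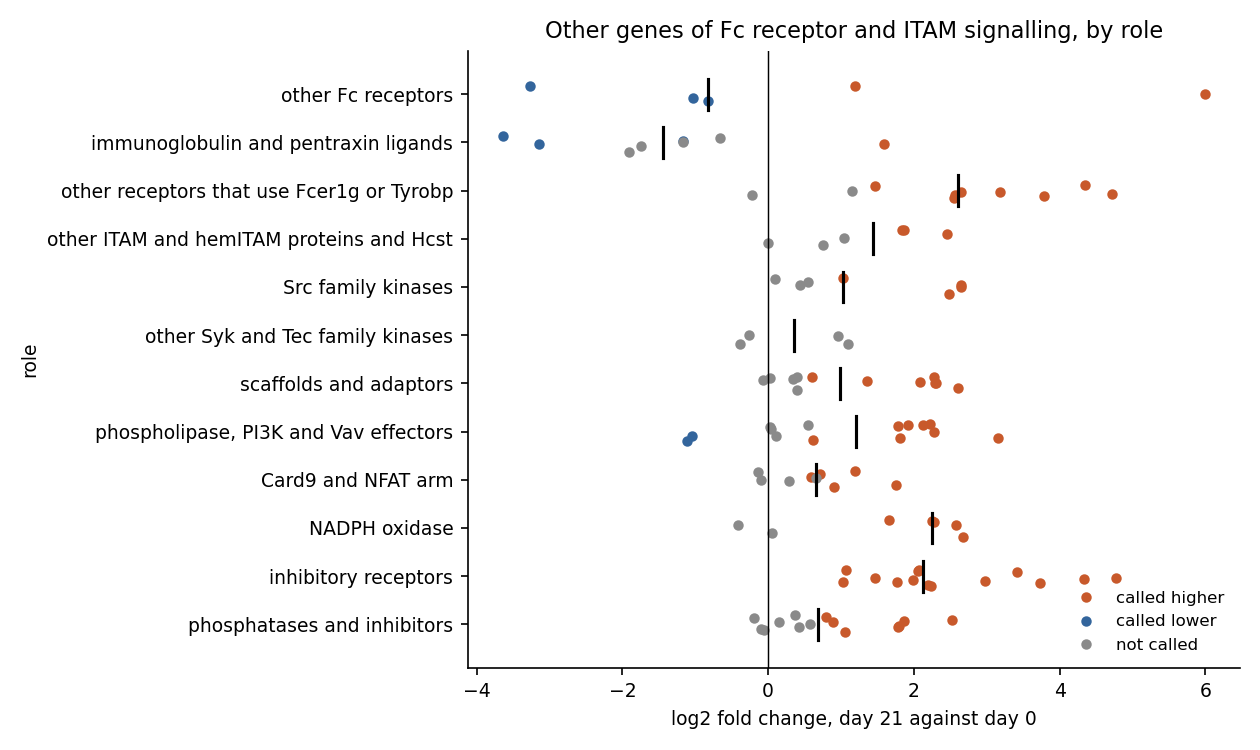
Log2 fold change, day 21 against day 0, of the 110 tested pathway genes outside the 10 members, by role; points are genes (orange called higher, blue called lower, grey not called) and black bars are medians. All 14 tested inhibitory receptors are orange, while the other Fc receptors spread from -3.27 to 5.99.

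Further along the pathway, 7 of 12 tested scaffolds and adaptors were called higher. Nfam1, an ITAM-bearing receptor listed with them, rose from 2.92 to 14.5 CPM (log2 fold change 2.30, SE 0.20; edgeR adjusted p = 1.3e-05), and the scaffold Lat2 by 2.60 (SE 0.30; edgeR adjusted p = 7.2e-05), although 36.3% of its exon bases overlap Rfc2 on the other strand. Grb2 and Skap2, at 63.7 and 52.5 CPM in day 0 kidneys, had log2 fold changes of 0.34 and 0.39 (edgeR adjusted p = 0.0192 and 0.0101) and under the fold threshold.

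Of 14 phospholipase, PI3K and Vav genes, 8 were called higher and 2 lower. Pik3ap1, which couples receptors to PI3K, rose from 3.80 to 34.2 CPM (log2 fold change 3.16, SE 0.20; edgeR adjusted p = 2.5e-06), and Prkcb, a diacylglycerol-activated kinase, by 2.27 (SE 0.29; edgeR adjusted p = 1.5e-04). The 2 that fell are the inositol trisphosphate receptors Itpr1 (402 to 195 CPM, -1.05, SE 0.13; edgeR adjusted p = 1.1e-04) and Itpr2 (105 to 49.0 CPM, -1.11, SE 0.11; edgeR adjusted p = 3.2e-05). Prkcd was at 0.11 (edgeR adjusted p = 0.43).

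In the Card9 and NFAT arm, through which Dectin-1 and calcium reach transcription, 5 of 9 genes were called higher. Card9 itself had 10, 9 and 7 counts at day 0 and 35, 51 and 47 at day 21 (log2 fold change 1.76, SE 0.35; edgeR adjusted p = 0.00245). Nfatc2 rose by 1.19, Nfkb1 by 0.91 and Bcl10 by 0.59 (edgeR adjusted p = 2.8e-04, 1.3e-04 and 0.00294). Of 7 NADPH oxidase genes, the complex that makes superoxide after Fc receptor ligation, 5 were called higher. Cybb, its catalytic subunit, had 96, 126 and 83 counts at day 0 and 936, 1038 and 912 at day 21 (log2 fold change 2.68, SE 0.13; edgeR adjusted p = 9.9e-07), and the cytosolic subunit Ncf1 rose by 2.58 (SE 0.18; edgeR adjusted p = 4.2e-06). Its membrane partner Cyba was at -0.42 (edgeR adjusted p = 0.025), below the fold threshold, from a level of 296 CPM at day 0. Rac1 was at 0.05 (edgeR adjusted p = 0.731), and 51.4% of its exon bases overlap Daglb on the other strand.

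The inhibitory side of the pathway, apart from Fcgr2b, did rise. Of 14 genes listed as inhibitory receptors, 14 were tested and 14 were called higher, with log2 fold changes from 1.03 to 4.77 and a median of 2.13. Clec12a, an ITIM receptor of myeloid cells, had 6, 12 and 7 counts at day 0 and 219, 328 and 207 at day 21 (log2 fold change 4.33, SE 0.29; edgeR adjusted p = 3.0e-06). Sirpa, the receptor of the CD47 "don't eat me" signal, rose from 64.7 to 136 CPM (1.07, SE 0.10; edgeR adjusted p = 2.5e-05). Siglec1 rose most (4.77, SE 0.28; edgeR adjusted p = 1.7e-06), although this macrophage sialic acid receptor has no ITIM of its own and was listed with its family. Cd72 was at 1.03 (edgeR adjusted p = 3.9e-05), but 41.6% of its exon bases overlap Tesk1 on the other strand. Of 14 tested phosphatases and inhibitors, 7 were called higher. Ptprc, the leukocyte phosphatase CD45, rose from 9.84 to 56.1 CPM (2.52, SE 0.14; edgeR adjusted p = 1.4e-06). The adaptor Dok1 rose by 1.86 (edgeR adjusted p = 8.1e-04) and Csk, which restrains Src family kinases, by 0.79 (edgeR adjusted p = 3.8e-04). Ptpn11, the widely expressed phosphatase SHP2, was at -0.19 (edgeR adjusted p = 0.215).

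The genes outside all lists whose pattern over the 6 mice was most like the mean pattern of the 10 genes, by Euclidean distance between row-standardized log2 CPM, were H2-Aa (0.191), H2-Eb1 (0.200), Fndc10 (0.211), Adamts16 (0.214) and Tmem132a (0.217). H2-Aa and H2-Eb1 encode chains of MHC class II and rose by 2.21 and 2.27 on the log2 scale (edgeR adjusted p = 8.5e-06 and 6.6e-06). The distance reflects the split between groups and the order of mice within them. Among the 10 genes, Tyrobp lay nearest to the shared pattern (0.260), and Fcgr2b lay farthest (2.34, place 7003 of 16592). That pattern is the mean of these same 10 genes, so their places restate the fold changes above and are not a separate result.

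Promoters were read as a description of their sequence, and any part of it in the fold changes was not tested. RefSeq promoters (GRCm38.p6, 250 bases before to 50 after each start) were held for 9 of the genes, 12 promoters in all, and Tyrobp is named only. Both strands were searched for GAGGAAGT and for its shorter part GAGGAA, a word that the myeloid factor PU.1 can bind. The shorter word was found in 8 of the 12 promoters, those of Fcgr1, Fcgr3, Fcgr4, Clec7a and Btk and 1 of 2 of Syk, against 28.3% of 32851 promoters. Counted by gene, it was found in 6 of the 9, against 8446 of 27025 genes. The shorter word was not in the windows of Fcgr2b, which was not called, or of Fcer1g and Plcg2, which were called higher. Other words that PU.1 can bind were not searched. The longer word was found in Fcgr4 alone of these genes and in 3.20% of all promoters. Some genes have overlapping starts that share the same match, and a match is a description of the letters and not a binding site. The 4 Fc gamma receptor promoters are shown from 100 bases before to 20 after the start, a window chosen after the matches were seen, with the matched word in capitals (TTCCTC is GAGGAA on the other strand, and in Fcgr4 the capitals cover the longer word).
Fcgr1, chr3:96293950-96294069, minus strand: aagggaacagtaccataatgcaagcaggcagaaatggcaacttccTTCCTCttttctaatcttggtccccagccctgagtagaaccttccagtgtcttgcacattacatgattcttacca
Fcgr3, chr1:171059375-171059494, minus strand: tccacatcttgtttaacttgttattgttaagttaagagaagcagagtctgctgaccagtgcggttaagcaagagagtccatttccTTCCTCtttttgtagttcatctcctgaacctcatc
Fcgr4, chr1:171018826-171018945, plus strand: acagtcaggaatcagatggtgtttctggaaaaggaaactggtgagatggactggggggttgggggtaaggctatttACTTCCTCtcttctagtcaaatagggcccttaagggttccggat
Fcgr2b, chr1:170976052-170976171, minus strand: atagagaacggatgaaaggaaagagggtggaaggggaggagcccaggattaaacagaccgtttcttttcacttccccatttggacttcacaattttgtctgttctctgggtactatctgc

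Libraries held 10963849 to 14256556 counts at day 0 and 12662200 to 14333311 at day 21, so that 3 counts, the level taken as the detection floor, were 0.179 to 0.309 CPM. Floors cover counting error only. Mitochondrial genes took 9.39% to 9.86% of counts at day 0 and 3.82% to 4.42% at day 21, and the part of this difference in the results was not tested. No 2 libraries of the same group agreed within sampling noise, and pairs across the groups were not compared.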

How the data were processed

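Bulk kidney mRNA of 3 day 0 and 3 day 21 mice was sequenced as paired reads of 150 bases. The authors deposited 1 table of raw counts per Ensembl gene. The submitters' processing notes name TopHat and mm10, and the counter, its strand setting and its handling of reads that map to several genes are not given in the sources used here. All 6 columns were assigned to mice by the sample titles, and 0 columns were left unused.

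The counts were tested with edgeR 4.0.16 (quasi-likelihood test, R 4.3.3), after filterByExpr (minimum count 10, minimum total 15) and TMM scaling, with group as the only term and Benjamini-Hochberg adjustment over the 16592 genes tested. Genes were called at an adjusted p below 0.05 and a fold change over 1.5. Ratios between genes were compared with exact permutation tests, which for 3 against 3 mice cannot give p below 0.1. Standard errors were taken from the fold change and its F statistic. TPM used the summed exon length in GENCODE M21. Alternatives used DESeq2 1.42.0, limma 3.58.1, other scalings, other filters and each mouse left out. On simulated counts for the same 16592 genes with 200 genes changed 3-fold, edgeR recovered 170 of the 200 and called 12 unchanged genes. Those genes were changed in both directions without a shift in library composition. In the data 19.6% of genes were called higher and 15.5% lower, so the simulation does not address calls that depend on scaling.

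The 10 genes and all lists were chosen with earlier results of these data known. The named genes were, in each role list, the 2 with the highest level per length, the 2 with the largest absolute log2 fold change, and every gene called lower. Some genes that this rule names are not reported here. Ighm, Cd163, Mpo, Elane and Fcer1a fall outside this rule and were named after their values were seen. The ratios of Fcer1g to other members, the promoter window shown and the transcript used for the coding motifs were chosen after values were seen. Same-numbered mice of the 2 groups are separate animals, and their deviations from the group means correlated at -0.019, 0.165 and 0.0896, so the numbers were not taken as pairs.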

Additional observations from a re-analysis of the deposited data

How the results depend on the processing

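The 9 calls among the 10 genes held with DESeq2, limma-voom, the other scalings, no filter and each mouse left out. A filter at a mean of 50 counts dropped Btk, and adjusted p below 0.01 with a fold over 2 dropped Plcg2, leaving 8 in each case. The 64 other pathway genes called higher became 49 to 79. The 8 called lower became 5 with library size alone, 5 with limma-voom, 15 with no filter and 4 at the stricter threshold, and 5 to 11 with 1 mouse left out, the 5 without day 21 replicate 1 and again without day 21 replicate 3. With library size alone, the log2 median over the genes tested went from 0.03 to 0.42. The calls went from 3249 higher and 2572 lower to 5985 and 1338. Fcgr2b there stood at 0.45, beside that median (edgeR adjusted p = 0.0129). It passed the threshold on adjusted p and was not called only because its fold change was under the fold threshold. With RLE and upper quartile scaling Fcgr2b was at 0.02 and 0.15 (edgeR adjusted p = 0.893 and 0.395). The test result for Fcgr2b thus depended on the scaling. With 1 mouse left out Fcgr2b ran from -0.03 to 0.16 and was not called (-0.02 without day 0 replicate 3 and -0.00 without day 0 replicate 1). The log2 difference of the activating to inhibitory ratio was 3.87 with Fcgr1 alone and 2.44 with Fcgr3 alone, against 2.71. The median of the 10 genes relative to macrophage markers was -0.11 with the mean of log2 marker counts and 0.88 without the C1q genes, against 0.23, since each form shifts all genes together. A fit with the replicate number as a block called 9 genes higher and 0 lower among the 10, and 64 higher and 11 lower among the other pathway genes; same-numbered mice did not deviate together in all pairs. At 0 to 24 counts a mouse, day 0 levels of Clec7a, Btk, Trem2, Clec4n and Fcrls limit how precisely their folds are known.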
